A study of Mus musculus with 6 samples.

Results

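Axon guidance genes encode the cues and receptors that steer growing neurites. The 69 genes described here were the protein-coding entries, of 55385 genes in the deposited table, named for 4 such systems: the semaphorins with their plexin and neuropilin receptors, the Slits with the Robos, the netrins with Dcc and the Unc5 receptors, and the ephrins with the Eph receptors. In all, 35 were ligands and 34 were receptors. Membership followed gene names alone and used no measured value, but the systems were chosen with earlier results of these data known. The table's own KEGG column assigned 63 of the 69 to axon guidance.

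Expression was measured in Neuro2A (N2A) cells, a mouse neuroblastoma line labelled as neuroblasts, in 2 groups of 3 libraries each. The si-circCpsf6 group received a small interfering RNA (siRNA) directed at circCpsf6, a circular RNA whose name points to the gene Cpsf6. The si-NC group received the siRNA that the labels call si-NC, and si-circCpsf6 is compared with it. Both siRNAs were given at 100 nM with the same lipid reagent, to cells grown with serum, and no time after transfection is given in the labels. Nothing in the labels ties the replicates to separate cultures, so every p-value below covers the spread among these libraries, which may be technical. Values are FPKM (fragment counts divided by transcript length and by library size), so levels of different genes can be set side by side per length.

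In these systems a cue in the surroundings binds a receptor on the growth cone, the moving tip of a neurite, and the receptor changes the local cytoskeleton through small GTPases such as Rac1 and RhoA. Secreted class 3 semaphorins bind neuropilins, which signal through A-type plexins. Membrane-bound semaphorins bind plexins directly: Sema4d is the classical ligand of Plxnb1 and Sema7a of Plxnc1. Netrin-1 attracts through Dcc and repels through Unc5 receptors, Slits repel through Robos, and ephrins signal to Eph receptor tyrosine kinases by cell contact. Sympathetic neuroblasts, the lineage of neuroblastoma, are guided by neuropilins and semaphorins in the embryo.

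Between 12671 and 13080 genes per library reached 1 FPKM, and the number of reads behind a value is not known. On the log2(FPKM + 1) scale, libraries correlated across genes (genes are no replicates) at 0.936 to 0.971 within a group and 0.919 to 0.95 between groups. Of 14 sympathoadrenal neuroblast markers, 11 were at 1 FPKM or more in every library. The summed level of those 14 was 755.9 to 852.8 FPKM in si-circCpsf6, against 997.6 to 1211 FPKM in si-NC, and the sums did not overlap. By gene, 5 of the 14, Chga, Hand2 and Tubb3 among them, lay wholly lower in si-circCpsf6, 0 lay wholly higher, and Elavl4, Gata2, Gata3 and Stmn2 had higher means in si-circCpsf6 with overlapping groups. Their part in the differences below was not tested, and in bulk RNA fewer cells of a type and less RNA per cell cannot be told apart. None of 28 markers of fibroblasts, glia, macrophages and endothelial cells reached 1 FPKM in every library. The fibroblast list's Pdgfrb, which is singled out here for its values, was at 4.31, 4.24 and 4.88 FPKM in si-circCpsf6, against 1.57, 1.45 and 0.35 FPKM in si-NC, and its part in the results was not tested. Of the 8 fibroblast markers, 2 (Pdgfrb and Pdgfra) lay wholly higher in si-circCpsf6 and 0 wholly lower. The groups overlapped for the rest, the collagens among them: Col1a1 read 3.69, 0.16 and 1.13 FPKM in si-circCpsf6, against 4.53, 0.13 and 0.86 FPKM in si-NC. Sums over the lists were 5.53 to 11.6 FPKM in si-circCpsf6 and 2.61 to 10.6 FPKM in si-NC for fibroblasts, 1.36 to 3.04 FPKM in si-circCpsf6 and 3.29 to 4.1 FPKM in si-NC for glia, 1.01 to 1.21 FPKM in si-circCpsf6 and 1.15 to 1.66 FPKM in si-NC for macrophages, and 1.82 to 4.32 FPKM in si-circCpsf6 and 2.9 to 3.61 FPKM in si-NC for endothelial cells. The glial sums did not overlap and were lower in si-circCpsf6, and their part in the results was not tested. The host gene Cpsf6 read 10.65, 15.06 and 14.5 FPKM in si-circCpsf6 and 14.09, 14.5 and 15.2 FPKM in si-NC. A value per gene does not measure the circle, so the silencing itself was not checked.

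Of the 69 genes, 34 (19 ligands and 15 receptors) averaged 1 FPKM or more across all 6 libraries and were tested. Of these, 3 (Ephb4, Sema6c and Slit1) reached that mean only through their higher si-circCpsf6 values. The other 35 genes were not tested: 25 of them stayed under 0.1 FPKM in every library, and 7 of those, Sema3a, Sema3d, Sema3e, Ntn4, Dcc, Epha5 and Epha6, were listed at 0 in all 6. No untested gene exceeded 1.05 FPKM in any library.

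The repertoire was uneven within each system. Plxna1, a co-receptor for class 3 semaphorins, had the highest level, at 35.55 to 41.03 FPKM in si-circCpsf6 and 34.31 to 39.01 FPKM in si-NC. Plxnb2, a receptor of class 4 semaphorins, followed at 27.63 to 31.54 FPKM in si-circCpsf6 and 26.31 to 30.21 FPKM in si-NC, below Plxna1 in every library. Efna5, a membrane-anchored A-type ephrin, read 23.53 to 30.39 FPKM in si-circCpsf6 and 24.49 to 30.14 FPKM in si-NC, which overlapped the range of Plxnb2. The 10 highest genes, by their mean over the 6 libraries, made up 65.7% of the summed FPKM of all 69.

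Some cues were measured at several FPKM while the receptors best known for them were near 0. Slit3 averaged 11.2 ± 5.63 FPKM in si-circCpsf6 and 16.2 ± 2.02 FPKM in si-NC (SD, n = 3 each, as for all such values here). The 4 Robos together summed to at most 0.1 FPKM in any library: Robo3 read 0.08, 0.07 and 0.1 FPKM in si-circCpsf6 and 0.04, 0.05 and 0.04 FPKM in si-NC, and Robo2 did not exceed 0.02 FPKM. The repelling netrin receptors Unc5a, Unc5b and Unc5c were each at 11.02 FPKM or more in every library, while Dcc was listed at 0. Netrin-1 itself, Ntn1, read 0.4, 0.1 and 0.24 FPKM in si-circCpsf6 and 0.26, 0.38 and 0.27 FPKM in si-NC.

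In the ephrin system, Efna5 made up most of the ephrin sum, which was 33.2 to 37.6 FPKM in si-circCpsf6 and 32.9 to 38.0 FPKM in si-NC. The 14 Eph receptors summed to 6.61 to 9.67 FPKM in si-circCpsf6 and 6.62 to 6.68 FPKM in si-NC. The Eph receptor with the highest mean was Epha10, whose kinase domain is thought to lack catalytic activity. It read 4.08, 2.4 and 2.84 FPKM in si-circCpsf6 and 2.84, 2.82 and 3.7 FPKM in si-NC. Ephrin-B ligands Efnb1, Efnb2 and Efnb3 together stayed at or under 1.61 FPKM.

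**Figure D1:**
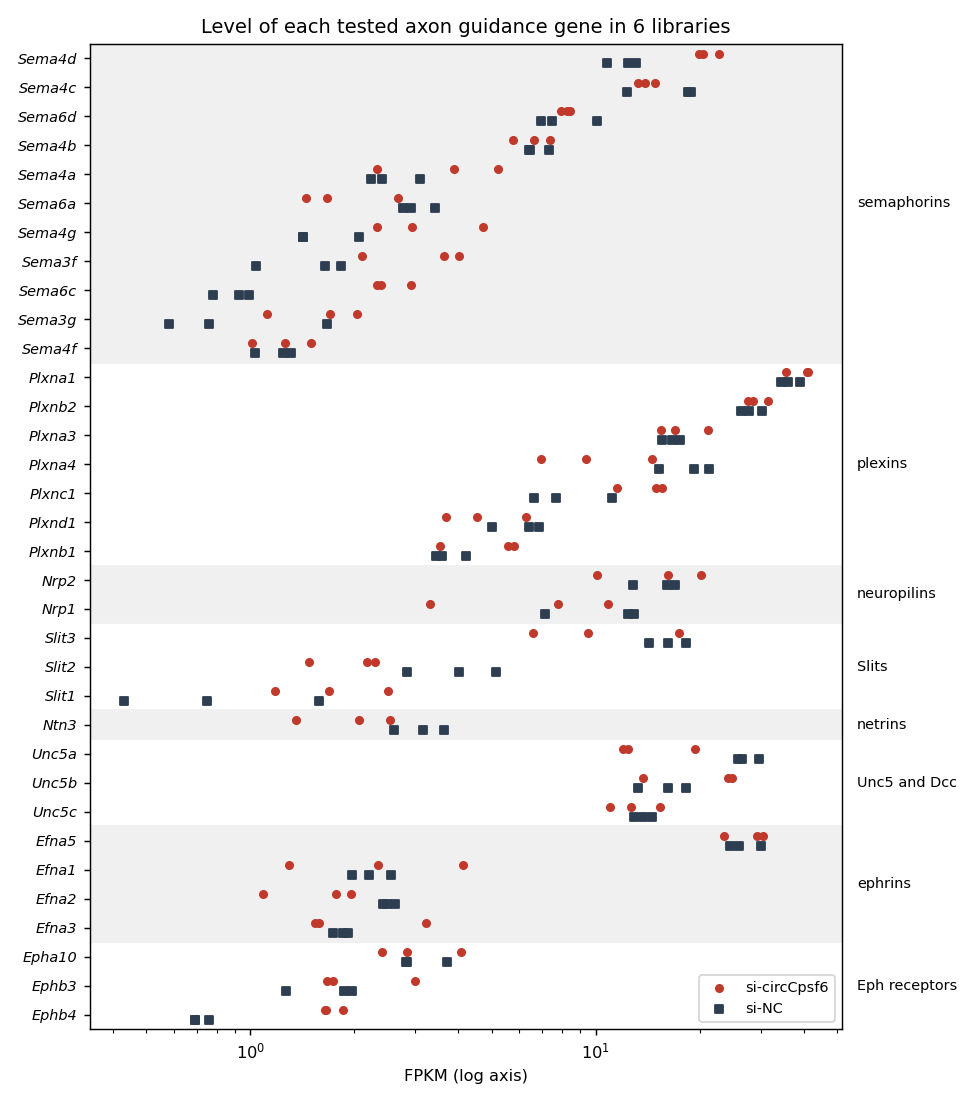
FPKM on a log axis of the 34 tested genes, by family and in order of mean level. Circles are the 3 si-circCpsf6 libraries and squares the 3 si-NC libraries. Plxna1, Plxnb2 and Efna5 stand highest, and the groups separate visibly for Sema4d, Sema6c, Ephb4, Unc5a and Slit2 among others.

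Setting si-circCpsf6 against si-NC asks which guidance genes differ when the circle is targeted. The test was limma on log2(FPKM + 1) over the 12974 genes that averaged 1 FPKM or more, with Benjamini-Hochberg adjustment over all of them. The semaphorins Sema4d and Sema6c rose (2 of 34 tested genes, where 0.902% of all tested genes were called higher), and 0 genes were called lower (0.786% of all tested genes; the authors' deposited q-values give 3). Sema6c entered the test only through its si-circCpsf6 level, so its call is not independent of the filter. At an unadjusted p under 0.05 by limma, 6 of the 34 were higher and 6 lower, 17.6% each, against 10.2% and 10.1% of all tested genes. Among the 31 guidance genes with both group means at 1 FPKM or more, 1 was called higher and 0 lower, and 4 were higher (12.9%) and 6 lower (19.4%) at that unadjusted p, against 9.62% and 9.91% of 12431 such genes. In 12 genes of the 34 the 3 si-circCpsf6 values lay wholly above (6 genes) or wholly below (6 genes) those of si-NC. Sema6c and Ephb4 are among the 6 above and passed the filter through si-circCpsf6 alone, so that count is not independent of the filter. Over all tested genes, 12.8% lay wholly above and 14% wholly below. The median log2 fold change of the 34 was 0.05 and of all tested genes -0.02, and the median size of the change was 0.36 and 0.22. Both medians of the 34 include Ephb4, Sema6c and Slit1. With 3 libraries against 3, an exact permutation test of a single gene cannot give a p below 0.1.

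Sequence was examined because the heptamer GCAGAAT in 3' untranslated regions (3' UTRs) goes with lower values across this table. That pattern was found in earlier work on these same libraries, so the values here describe it for the guidance genes and do not test it. In the longest annotated 3' UTR of each gene (GENCODE M21, sense strand), the heptamer stood in 7 of the 34 tested guidance genes (20.6%) and in 10.2% of 10630 tested genes. The median 3' UTR was 1382 bases long in the 34 and 1174 in all. The sites are shown from 5' to 3' as the RNA's DNA letters, with the heptamer in capitals, because their genes had log2 fold changes of both signs:
Slit1: acctgggtgtaGCAGAATgaaagatgaggg
Unc5c: cctgtgctatgGCAGAATtataaattgcag
Nrp2: tgcattaaacgGCAGAATcaatttggttgc
Plxna4: ttgtccctcctGCAGAATctggtgccattg
Plxnc1: aaaggctgaagGCAGAATttggtagtgtgt
Plxnb1: tttatcctcacGCAGAATggttttgcctcc
Sema4b: cctttctcactGCAGAATcagggccctgct

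In GRCm38 these lie at chr19:41601122-41601151 (minus strand) for Slit1, chr3:141833775-141833804 (plus) for Unc5c and chr1:62797632-62797661 (plus) for Nrp2. The others are at chr6:32149380-32149409 (minus) for Plxna4, chr10:94792653-94792682 (minus) for Plxnc1, chr9:109119528-109119557 (plus) for Plxnb1 and chr7:80225763-80225792 (plus) for Sema4b. None of the 7 is followed by A, so 0 of the 34 genes held the longer match GCAGAATA in that window. Of the 7 carriers, 3 (Slit1, Plxnc1 and Plxnb1) had a log2 fold change above 0 and 4 (Unc5c, Nrp2, Plxna4 and Sema4b) below 0. Their median was -0.02, against 0.05 for the 27 guidance genes without it. Over all tested genes the medians were -0.13 for 1086 carriers and -0.01 for the rest. Of the 6 tested guidance genes that lay wholly lower in si-circCpsf6, Plxna4 holds these letters in that window. Unc5a, Slit2, Sema6a, Ntn3 and Efna2 do not. Of the 6 that lay wholly higher, Plxnc1 holds them and the rest do not. A part of the heptamer in these differences was not tested.

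The semaphorin Sema4d (ENSMUSG00000021451, chromosome 13, 51685529 to 51793747, GRCm38) is a membrane-bound ligand that can be shed and that collapses growth cones through B-type plexins. It read 22.81, 20.48 and 19.91 FPKM in si-circCpsf6, against 12.43, 13.06 and 10.75 FPKM in si-NC. All 3 si-circCpsf6 libraries lay well above all 3 si-NC libraries, and the gap between the groups was wider than the range within either. The log2 fold change was 0.76 ± 0.13 (SE, n = 3 each), with a limma adjusted p of 0.0398.

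The second semaphorin to rise was Sema6c (ENSMUSG00000038777, chromosome 3, 95160457 to 95174024, GRCm38), a transmembrane semaphorin. It read 2.91, 2.32 and 2.39 FPKM in si-circCpsf6, against 0.78, 0.99 and 0.93 FPKM in si-NC. The level was low, but every si-circCpsf6 value was more than double any si-NC value. The log2 fold change was 0.90 ± 0.16 (SE, n = 3 each; limma adjusted p = 0.0414) on a scale that understates changes of low genes. Its si-NC mean was 0.9 FPKM, and it passed the filter through si-circCpsf6 alone. The authors' deposited table gives a fold change of 2.83 for this gene.

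Neither call held with a library left out. The limma adjusted p of Sema4d was 0.067, 0.0808 and 0.104 without si-circCpsf6 replicates 1, 2 and 3, and 0.118, 0.0814 and 0.195 without si-NC replicates 1, 2 and 3. That of Sema6c was 0.0764, 0.0786 and 0.111 without si-circCpsf6 replicates 1, 2 and 3, and 0.124, 0.089 and 0.175 without si-NC replicates 1, 2 and 3. The log2 fold changes stayed at 0.68 to 0.81 for Sema4d and 0.82 to 0.94 for Sema6c, and calls over the whole table were also fewer in each of those fits. With no filter on low values the adjusted p was 0.0953 for Sema4d and 0.133 for Sema6c.

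Other semaphorins pointed both ways without passing the test. Sema3f, a secreted repellent that acts through Nrp2, read 4.01, 3.64 and 2.11 FPKM in si-circCpsf6, against 1.64, 1.83 and 1.04 FPKM in si-NC (log2 fold change 0.75 ± 0.23 SE, limma adjusted p = 0.133). Sema4g read 4.72, 2.32 and 2.93 FPKM in si-circCpsf6, against 2.07, 1.42 and 1.42 FPKM in si-NC (0.68 ± 0.23, limma adjusted p = 0.16). In both genes the groups lay apart, with the lowest si-circCpsf6 library close to the highest si-NC library.

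Sema6a, a transmembrane ligand of Plxna2 and Plxna4, ran the other way. It read 1.67, 2.68 and 1.45 FPKM in si-circCpsf6, against 2.91, 2.77 and 3.42 FPKM in si-NC (log2 fold change -0.48, limma adjusted p = 0.218). The ratio of Sema6c to Sema6a was therefore 1.74, 0.866 and 1.65 in si-circCpsf6, against 0.268, 0.357 and 0.272 in si-NC. This ratio, like those of Unc5a and Plxna4 further on, was picked after the values were seen and is given as a description. Of 5 ratios formed, 4 had groups apart.

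The more abundant Sema4c, a ligand of Plxnb2, read 14.86, 13.22 and 13.91 FPKM in si-circCpsf6, against 18.9, 12.32 and 18.54 FPKM in si-NC. Its groups overlapped (log2 fold change -0.21, 95% interval -0.62 to 0.21). Sema4b read 7.37, 6.61 and 5.75 FPKM in si-circCpsf6, against 6.42, 7.3 and 6.44 FPKM in si-NC (-0.03, 95% interval -0.35 to 0.29). The 4 tested semaphorins not yet given, Sema3g, Sema4a, Sema4f and Sema6d, had log2 fold changes of 0.02 to 0.41 with overlapping groups.

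Summed over the 20 semaphorins, the level was 76.2, 66.1 and 64.7 FPKM in si-circCpsf6, against 59.8, 55.6 and 55.3 FPKM in si-NC. Sema4d accounted for most of that difference: without it the sums were 53.4, 45.6 and 44.8 FPKM in si-circCpsf6, against 47.4, 42.5 and 44.6 FPKM in si-NC, and the groups overlapped. Among untested semaphorins, Sema7a was at 0.3, 0.24 and 0.27 FPKM in si-circCpsf6, against 0.14, 0.08 and 0.11 FPKM in si-NC, too low for a reading.

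**Figure D2:**
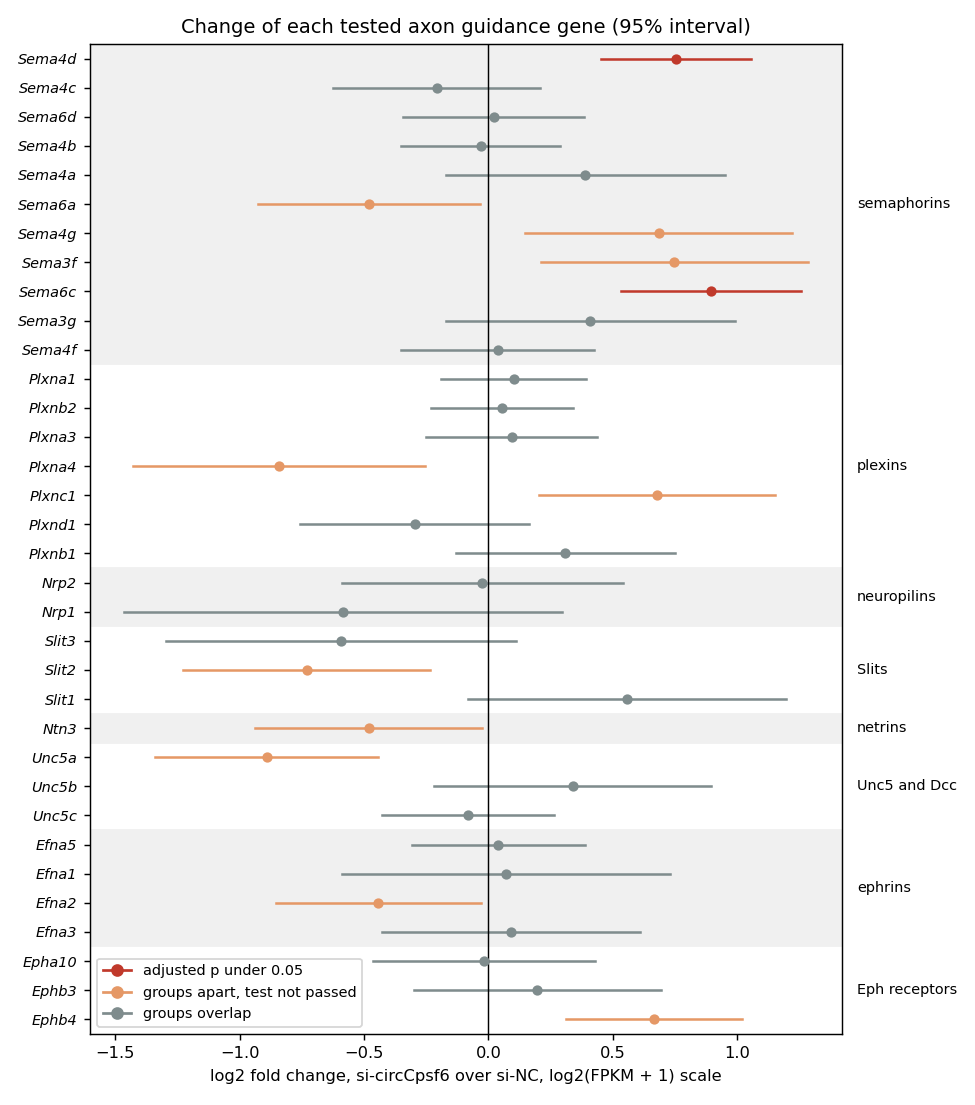
Log2 fold change of si-circCpsf6 over si-NC on the log2(FPKM + 1) scale for the 34 tested genes, with limma's 95% interval, by family and in order of mean level. Only Sema4d and Sema6c pass the test at an adjusted p under 0.05, and the 12 intervals that exclude 0 are divided evenly between the directions.

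The plexins, the semaphorin receptors, differed among themselves. Plxna1, Plxnb2 and Plxna3 had overlapping groups and log2 fold changes of 0.10 (95% interval -0.19 to 0.39), 0.05 (-0.23 to 0.34) and 0.09 (-0.25 to 0.44). Plxna1 read 40.99, 41.03 and 35.55 FPKM in si-circCpsf6, against 34.31, 39.01 and 36.0 FPKM in si-NC. Plxnb2 read 31.54, 28.45 and 27.63 FPKM in si-circCpsf6, against 30.21, 26.31 and 27.76 FPKM in si-NC. These intervals bound any change of the highest plexins to under 0.5 on the log2 scale in either direction.

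Plxna4 (chromosome 6, 32144268 to 32588192, GRCm38; its GCAGAAT site is printed above), a receptor of Sema3a and Sema6a in sensory and sympathetic neurons, read 6.94, 9.34 and 14.5 FPKM in si-circCpsf6, against 19.23, 15.25 and 21.29 FPKM in si-NC. The groups lay apart by little, since si-circCpsf6 replicate 3 came close to si-NC replicate 2. The log2 fold change was -0.84 ± 0.25 (SE, n = 3 each; limma adjusted p = 0.125). Plxna4 overlaps 3 antisense genes, and Plxna4os2 read 0.19, 0.15 and 0.14 FPKM in si-circCpsf6, against 0.4, 0.36 and 1.07 FPKM in si-NC. The handling of strand in counting was not given in the sources used here, and reads of the pair cannot be told apart.

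Plxnc1, the receptor of Sema7a, whose 3' UTR also holds the heptamer, read 11.53, 15.56 and 14.9 FPKM in si-circCpsf6, against 7.69, 11.14 and 6.62 FPKM in si-NC (log2 fold change 0.68 ± 0.20 SE, limma adjusted p = 0.128). As with Plxna4, the groups were separate but nearly touched. Plxna4 over Plxnc1 was 0.602, 0.6 and 0.973 in si-circCpsf6, against 2.5, 1.37 and 3.22 in si-NC. Plxnc1 was thus the higher of the pair in all 3 si-circCpsf6 libraries and Plxna4 in all 3 si-NC libraries. The summed plexins were at 116 to 126 FPKM in si-circCpsf6 and 118 to 119 FPKM in si-NC.

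Plxnb1, the receptor of Sema4d, read 3.53, 5.58 and 5.79 FPKM in si-circCpsf6, against 3.44, 3.6 and 4.2 FPKM in si-NC (log2 fold change 0.31, 95% interval -0.13 to 0.75). Replicate 1 of si-circCpsf6 lay within the si-NC range. Plxnd1 had a log2 fold change of -0.30 (95% interval -0.76 to 0.17).

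The neuropilins carry the binding site for class 3 semaphorins and also bind VEGF. Nrp1 read 3.32, 7.75 and 10.84 FPKM in si-circCpsf6, against 12.38, 7.13 and 12.88 FPKM in si-NC (log2 fold change -0.58, 95% interval -1.47 to 0.30). Nrp2 read 10.11, 20.11 and 16.17 FPKM in si-circCpsf6, against 12.78, 16.06 and 17.01 FPKM in si-NC (-0.02, 95% interval -0.59 to 0.54). Both genes were lowest in si-circCpsf6 replicate 1. Both intervals include 0 and values past 0.5 in size, so a difference of that size is not excluded here.

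That library was often the odd one. In 20 of the 34 tested genes (58.8%) the si-circCpsf6 value farthest from its group median was in replicate 1, where over all tested genes 45.4% were. The median SD of log2(FPKM + 1) over the 34 genes was 0.296 in si-circCpsf6 and 0.17 in si-NC, while over all tested genes it was 0.22 in si-circCpsf6 and 0.167 in si-NC.

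The Slits are large secreted repellents. Slit2 (chromosome 5, 47983138 to 48307733, GRCm38) read 1.48, 2.17 and 2.3 FPKM in si-circCpsf6, against 4.01, 2.85 and 5.15 FPKM in si-NC, with no overlap. Its log2 fold change was -0.73 ± 0.21 (SE, n = 3 each; limma adjusted p = 0.12), and the authors' deposited table gives a fold change of 0.49 and a q-value that rounds to 0. Slit3 read 6.58, 9.49 and 17.46 FPKM in si-circCpsf6, against 18.28, 14.24 and 16.14 FPKM in si-NC, and its groups overlapped through si-circCpsf6 replicate 3 (log2 fold change -0.59, limma adjusted p = 0.324).

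Slit1 had the opposite sign, at 2.51, 1.18 and 1.69 FPKM in si-circCpsf6, against 0.75, 1.58 and 0.43 FPKM in si-NC (log2 fold change 0.56, limma adjusted p = 0.307). Its groups overlapped through si-NC replicate 2. Slit2 over Slit1 was 0.59, 1.84 and 1.36 in si-circCpsf6, against 5.347, 1.804 and 11.977 in si-NC, which overlapped.

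Among netrins only Ntn3 was tested. It read 1.36, 2.06 and 2.53 FPKM in si-circCpsf6, against 3.16, 2.6 and 3.64 FPKM in si-NC (log2 fold change -0.48, limma adjusted p = 0.224), and the highest si-circCpsf6 value nearly met the lowest si-NC value. Ntn3 overlaps Tbc1d24 on the same strand over 1715 bases, so reads could be shared. Tbc1d24 read 3.12, 1.77 and 2.3 FPKM in si-circCpsf6, against 2.9, 3.12 and 2.14 FPKM in si-NC, with overlapping groups.

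Unc5a (ENSMUSG00000025876, chromosome 13, 54949411 to 55006018, GRCm38), a netrin receptor that mediates repulsion, read 19.39, 11.98 and 12.39 FPKM in si-circCpsf6, against 26.56, 25.81 and 29.66 FPKM in si-NC. Every si-circCpsf6 library was lower than every si-NC library by several FPKM. The log2 fold change was -0.89 ± 0.19 (SE, n = 3 each), with a limma adjusted p of 0.0651, just outside the threshold. Fitted over protein-coding genes alone the adjusted p was 0.0419, and without si-circCpsf6 replicate 1 it was 0.0342. It was 0.123 to 0.251 without each of the other 5 libraries and 0.162 with no filter.

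Its paralogue Unc5b read 24.17, 24.79 and 13.69 FPKM in si-circCpsf6, against 16.23, 18.2 and 13.24 FPKM in si-NC, with overlapping groups (log2 fold change 0.34, 95% interval -0.22 to 0.90). Unc5a over Unc5b was 0.802, 0.483 and 0.905 in si-circCpsf6, against 1.64, 1.42 and 2.24 in si-NC. Unc5b was the higher of the pair in all 3 si-circCpsf6 libraries and Unc5a in all 3 si-NC libraries. Unc5c read 11.02, 12.64 and 15.34 FPKM in si-circCpsf6, against 14.57, 12.88 and 13.72 FPKM in si-NC (-0.08, 95% interval -0.43 to 0.26). Summed over Dcc and the Unc5 receptors, the level was 54.6, 49.4 and 41.4 FPKM in si-circCpsf6, against 57.4, 56.9 and 56.6 FPKM in si-NC. Without Unc5a the sums were 35.2, 37.4 and 29.0 FPKM in si-circCpsf6, against 30.8, 31.1 and 27.0 FPKM in si-NC, and the groups overlapped.

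Ephb4 (chromosome 5, 137350109 to 137378669, GRCm38), the receptor of ephrin-B2, read 1.66, 1.65 and 1.85 FPKM in si-circCpsf6, against 0.76, 0.69 and 0.69 FPKM in si-NC. The libraries of each group were close to each other and the groups were far apart, at a low level. The log2 fold change was 0.67 ± 0.15 (SE, n = 3 each; limma adjusted p = 0.0743). Without the intensity trend the limma adjusted p was 0.049, and over protein-coding genes alone it was 0.0419. It was 0.182 with no filter and 0.109 to 0.267 without single libraries, and Ephb4, with a si-NC mean of 0.713 FPKM, passed the filter through si-circCpsf6 alone. Its ligand gene Efnb2 read 0.62, 0.77 and 0.54 FPKM in si-circCpsf6, against 0.53, 0.52 and 0.64 FPKM in si-NC, and was not tested.

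The other Eph receptors tested, Epha10 and Ephb3, had overlapping groups. Ephb3 read 3.0, 1.67 and 1.73 FPKM in si-circCpsf6, against 1.87, 1.97 and 1.27 FPKM in si-NC (log2 fold change 0.20, 95% interval -0.30 to 0.69), and Epha10 had a log2 fold change of -0.02 (-0.46 to 0.43). Of the ephrins, Efna5 read 23.53, 29.24 and 30.39 FPKM in si-circCpsf6, against 24.49, 26.01 and 30.14 FPKM in si-NC (0.04, 95% interval -0.31 to 0.39).

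Efna2 lay apart in the downward direction, at 1.09, 1.96 and 1.77 FPKM in si-circCpsf6, against 2.48, 2.62 and 2.42 FPKM in si-NC (log2 fold change -0.44, limma adjusted p = 0.217). The neighbours Efna1 and Efna3, whose genes stand 32.8 kb apart on chromosome 3, were each highest in si-circCpsf6 replicate 1. Efna1 read 4.13, 1.29 and 2.34 FPKM in si-circCpsf6, against 2.55, 2.21 and 1.97 FPKM in si-NC. Efna3 read 3.22, 1.54 and 1.58 FPKM in si-circCpsf6, against 1.92, 1.86 and 1.74 FPKM in si-NC, and it overlaps the antisense gene Gm15998 (0.2, 0.24 and 0.56 FPKM in si-circCpsf6, against 0.99, 1.38 and 1.56 FPKM in si-NC). Of other members that neighbour each other, Sema3b and Sema3f stand 72.3 kb apart on chromosome 9. Sema3b, at 0.33 to 0.52 FPKM in si-circCpsf6 and 0.34 to 0.54 FPKM in si-NC, had overlapping groups where those of Sema3f lay apart.

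**Figure D3:**
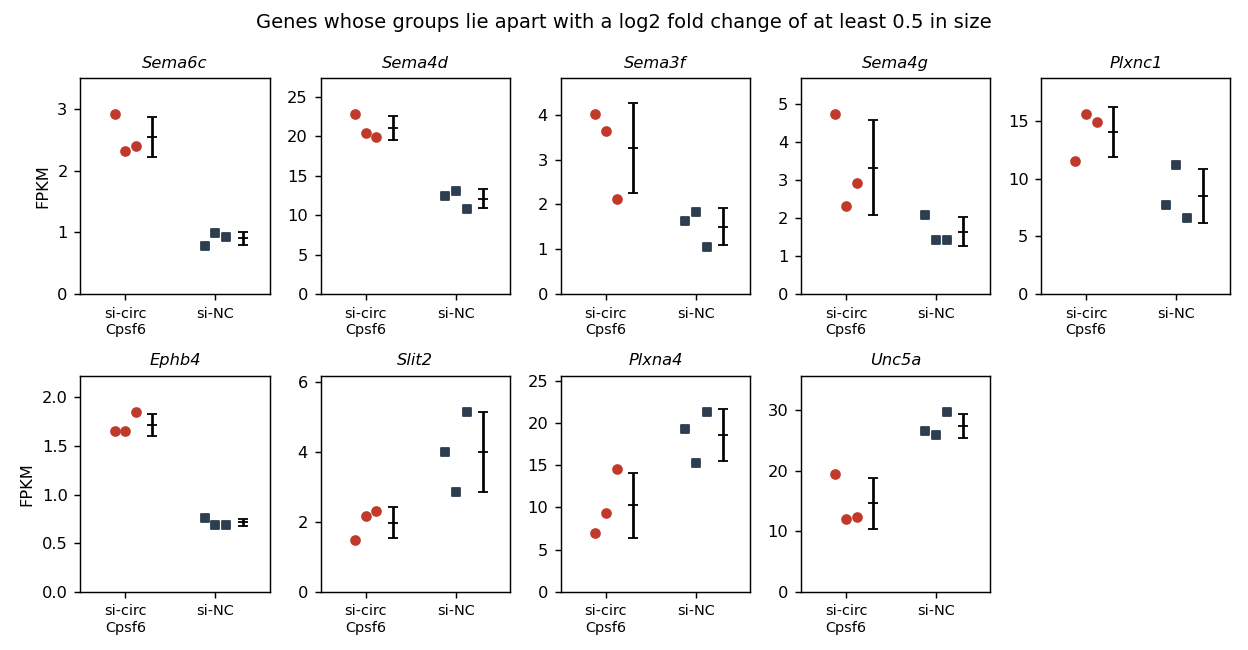
FPKM by library of the 9 genes whose groups lay apart with a log2 fold change of at least 0.5 in size, in order of fold change. Circles are si-circCpsf6 and squares si-NC, and bars are the mean and SD of 3 libraries. The 6 genes from Sema6c to Ephb4 are higher and the 3 genes Slit2, Plxna4 and Unc5a lower in si-circCpsf6.

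**Figure D4:**
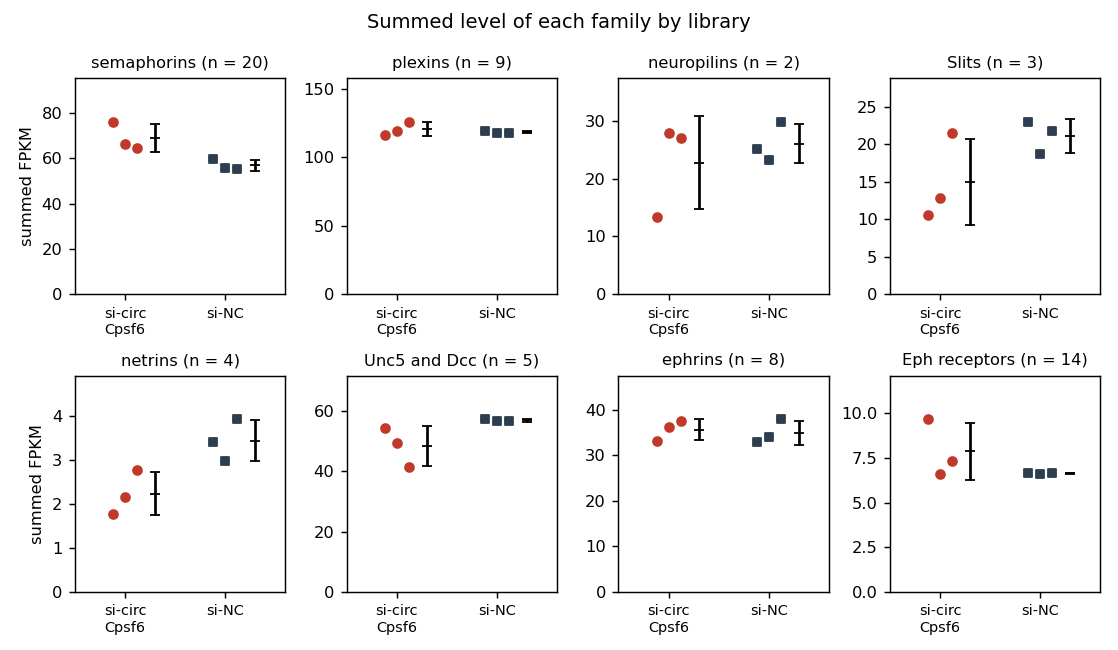
Summed FPKM of each family by library for si-circCpsf6 (circles) and si-NC (squares), with the mean and SD of 3 libraries and the number of genes summed. Sums lie apart for semaphorins, netrins and the group of Unc5 and Dcc, and overlap for the other families drawn. The semaphorin sums overlap without Sema4d and those of Unc5 and Dcc without Unc5a, and the netrin sums are mostly Ntn3. The Robos, whose sums also lie apart but at 0.1 FPKM or less in all libraries, are not drawn.

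By role, the sums of the groups were close. The 35 ligands summed to 121.8, 117.3 and 126.5 FPKM in si-circCpsf6, against 119.2, 111.2 and 118.9 FPKM in si-NC. The 34 receptors summed to 193.9, 203.1 and 201.7 FPKM in si-circCpsf6, against 208.3, 204.5 and 210.8 FPKM in si-NC, which lay apart by a small margin. Over all 69 genes the mean sum was 321 ± 6.36 FPKM in si-circCpsf6 and 324 ± 7.54 FPKM in si-NC. Of 19 tested ligands 12 had a log2 fold change above 0, and of 15 tested receptors 8 did, where 47.2% of all tested genes did. Sema6c, Slit1 and Ephb4 are among those above 0 and passed the filter through si-circCpsf6 alone.

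The authors' deposited table gives 9 of the 34 a q-value under 0.05. These were the higher Sema4d, Sema6c, Sema3f, Sema4g, Plxnc1 and Ephb4, where 3.22% of all tested genes were higher by that rule, and the lower Slit2, Plxna4 and Unc5a (2.29%). Sema6c and Ephb4 passed the filter through si-circCpsf6 alone, so the higher count is not independent of the filter. The sources used here do not name the test behind those q-values, and the authors' deposited table rounds them to 2 decimals.

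Genes that act with these cues and receptors were taken from a list of 84, of which 64 were tested. By limma 2 were called higher and 0 lower, where 0.902% and 0.786% of all tested genes were called. At an unadjusted p under 0.05 by limma, 16 were higher and 5 lower (25% and 7.81%), against 10.2% and 10.1% of all tested genes. By the authors' deposited q-values under 0.05, 4 were higher and 3 lower, where 3.22% and 2.29% of all tested genes were. Ablim3, described below, is among the 2, the 16 and the 4 higher genes and passed the filter through si-circCpsf6 alone. Those higher counts are therefore not independent of the filter. The median log2 fold change of the 64 was 0.09. Vav3, an exchange factor that acts below Eph receptors, rose to 7.69, 6.78 and 9.38 FPKM in si-circCpsf6, against 1.47, 2.22 and 1.8 FPKM in si-NC (limma adjusted p = 0.0134). It missed the threshold without si-circCpsf6 replicate 3 (0.051), si-NC replicate 1 (0.0526) or si-NC replicate 3 (0.07). The related factor Vav2 read 9.01, 10.5 and 9.81 FPKM in si-circCpsf6, against 13.82, 15.08 and 15.18 FPKM in si-NC (log2 fold change -0.54, limma adjusted p = 0.0707).

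The actin-binding LIM protein gene Ablim3 rose to 4.95, 4.19 and 3.16 FPKM in si-circCpsf6, against 0.96, 1.5 and 0.49 FPKM in si-NC (limma adjusted p = 0.0388). Without any single library its adjusted p was 0.0639 (without si-NC replicate 2) to 0.155 (without si-NC replicate 3), and with a si-NC mean of 0.983 FPKM it passed the filter through si-circCpsf6 alone. Ablim1, whose relative in Caenorhabditis elegans acts below the netrin receptor, read 1.66, 1.94 and 2.56 FPKM in si-circCpsf6, against 3.63, 3.84 and 4.32 FPKM in si-NC (log2 fold change -0.70, limma adjusted p = 0.0758). In both pairs of relatives the groups lay apart, in opposite directions.

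Rac1, the GTPase through which plexins and netrin receptors act on actin, is named here after its values were seen. It read 15.98, 14.97 and 44.04 FPKM in si-circCpsf6, against 71.49, 58.94 and 74.55 FPKM in si-NC. All si-circCpsf6 libraries were below all si-NC libraries, with si-circCpsf6 replicate 3 far above the rest of its group. The log2 fold change was -1.58 ± 0.38 (SE, n = 3 each; limma adjusted p = 0.079), and without si-circCpsf6 replicate 3 it was -2.07 (limma adjusted p = 0.0162). Without each of the other 5 libraries it was -1.32 to -1.68 (limma adjusted p = 0.143 to 0.265), and with no filter the adjusted p was 0.208. The GTPase genes Rhoa and Cdc42, on the same list, had overlapping groups and log2 fold changes of -0.06 and -0.05. The 3' UTR of Rac1 holds GCAGAAT, as do those of 10 other tested pathway genes. Of these 11, 2 had a log2 fold change above 0 and 9 below 0, with a median of -0.15. The median of all 1086 tested carriers was -0.13, and their share below 0 was not computed. These are 11 of 64 tested pathway genes, where 10.2% of 10630 tested genes held the heptamer. The pattern was found in these same libraries, so these values describe it for the pathway genes and do not test it.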

How the data were processed

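RNA from N2A cells was extracted with Trizol and sequenced by Illumina protocols, per the labels' protocols, which name a small RNA kit for these mRNA libraries. The authors deposited 1 table with an FPKM value per gene and library, rounded to 2 decimals. Per the file headers, further columns give a fold change (a ratio) and its log2 value, and the p-values and q-values of the authors' own test. What computed the FPKM and which test was used was not given in the sources used here. Bowtie 0.12.2 is listed by the submitters' processing notes with builds mm9 and mm8, and no role is stated. All 69 gene identifiers were found in GENCODE M21 (GRCm38), which gave positions and sequences.

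Low values of single-transcript genes of 150 to 1500 bases were searched for steps of whole fragments. At best 31.0% were whole within 0.1, where 20% would be by chance, so no counts were recovered, no count test was run, and the counting error of low values is unknown.

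Titles gave each library its group and number. Genes averaging 1 FPKM or more entered limma 3.58.1 (R 4.3.3) as log2(FPKM + 1) in a model of group alone, with an intensity trend and Benjamini-Hochberg adjustment at 0.05, two-sided. Alternatives changed the scaling, the pseudocount, the filter, the trend, a replicate block, the gene types and the libraries. The fit was tested on simulated data, where it recovered 67% of 200 genes changed 2-fold and 99% of 200 changed 4-fold, with 2.35% false calls. The members, lists and rules were chosen with earlier results of these data known. Genes given by library are those past the test, those with groups apart and a log2 fold change of at least 0.5 in size, the 2 highest of each family, and tested carriers of GCAGAAT; a few others are given with values chosen after these were seen (Sema6a, Ntn3 and Efna2, whose unadjusted p was under 0.05, their neighbours, ligands and overlapping genes, and Rac1). The 84 other pathway genes are named where called or, where none was, by the 2 smallest p. Figures used Python 3.11.15 and matplotlib 3.10.9.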

Additional observations from a re-analysis of the deposited data

How the results depend on the processing

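Of 34 guidance genes, 2 were called higher and 0 lower; the higher count was 0 with no filter on low values, 1 with the filter at 5 FPKM, 0 with a minimum absolute log2 fold change of 1 and 6 by the authors' q-values. The lower count was 1 over protein-coding genes alone and 3 by the authors' q-values. With 1 library left out the counts ranged from 0 to 0 higher and 0 to 1 lower. For the other pathway genes (2 higher, 0 lower) the higher count was 1 with a pseudocount of 0.1, 0 with no filter, 0 with the filter at 5 FPKM and 4 by the authors' q-values, and the lower count was 1 over protein-coding genes alone and 3 by the authors' q-values. Without single libraries these were 0 to 1 and 0 to 1. Over all 12974 tested genes, 117 were higher and 102 lower. These became 4 and 9 with no filter, 245 and 192 over protein-coding genes alone, 77 and 54 with the minimum change of 1, 418 and 297 by the authors' q-values, and 1 to 43 and 2 to 44 without single libraries. The causes were not tested.

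With the replicate number as a block, 0 guidance genes and 0 pathway genes were called higher, and over all genes 6 were higher and 5 lower. Deviations of same-numbered libraries correlated at 0.103, 0.129 and 0.084, and each library correlated best with its own number, which is a hint from the data. The labels do not say that a number marks a shared culture or day, so the numbers were not taken as pairs.

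Of 389 alternative values for the 25 named tested members, 345 kept their direction and side of the threshold, 18 lost a call (9 each for Sema4d and Sema6c), 11 gained one and 15 turned sign. None of the 15 passed the test. With 1 library left out, the log2 fold change ranged from -0.18 to 0.11 for Epha10, -0.20 to 0.0216 for Unc5c, -0.0286 to 0.15 for Efna5, -0.23 to 0.36 for Efna1, -0.23 to 0.23 for Nrp2, -0.0006 to 0.11 for Plxnb2 and -0.11 to 0.05 for Sema4b. Nrp2 was 0.02 in the authors' deposited table. Alternatives for single pathway genes were added after the data were seen. Because FPKM are relative and the reads behind them unknown, changes of genes near 1 FPKM, Sema6c and Ephb4 among them, have an unknown counting error.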
